A study of Mus musculus with 8 samples.

Results

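The genes described here encode the collagens, the laminins and the integrins. They were taken from the gene table by symbol alone: Col with a number, the letter a and a number, Lama, Lamb or Lamc with a digit, and Itga or Itgb with a letter or digit, leaving out genes of integrin-binding proteins such as Itgb1bp1. The rule found 83 of the 24346 genes listed, which were 44 collagens, 11 laminins and 28 integrins, and 30 of them had the mean of at least 1 FPKM that was required for a test.

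Induced immature oligodendrocytes (iOLs) were profiled by RNA-seq in 8 libraries, 4 Med23+/+ and 4 Med23-/-. Med23 is a subunit of Mediator, the complex that links transcription factors to RNA polymerase II. The Med23-/- cells came from mice with floxed Med23 and the Olig1-Cre transgene (Med23 fl/fl;Olig1-Cre), which is active in the oligodendrocyte lineage, and the cells called Med23+/+ came from littermates with the floxed alleles and no Cre (Med23 fl/fl). In both genotypes oligodendrocyte precursor cells (OPCs) were taken from the brain at postnatal day 7, passed over BSL1 lectin plates that remove endothelial cells and microglia, and selected with an antibody to CD140a, the protein of Pdgfra. They were expanded with PDGF-AA (10 ng/mL) and NT-3 (1 ng/mL) and then kept for 1 day in 15 nM T3 (triiodothyronine, the thyroid hormone that drives their differentiation) with 10 ng/mL CNTF, a cytokine. The sources used here do not say whether the 4 libraries of a genotype came from separate animals, so each p-value measures the spread between these libraries.

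Collagens are secreted proteins of 3 intertwined chains. The fibrillar types form fibers, the fibril-associated types sit on their surface, and type IV forms the sheet of basement membranes, together with laminins, which are cross-shaped molecules of an alpha, a beta and a gamma chain. Integrins are receptors of 1 alpha and 1 beta chain in the cell membrane that bind these matrix proteins outside and the cytoskeleton inside. In the oligodendrocyte lineage, laminins and their integrin receptors are known for their part in survival, in process outgrowth and in the wrapping of axons.

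The 5 collagen genes that passed both limits of the test described below are introduced by the DNA just before a RefSeq start of each, because the study concerns Sp1, a transcription factor that binds GC boxes. Each sequence has 150 bases and lies outside annotated exons, and capitals mark the GC box letters GGGCGG or the same letters read on the other strand, CCGCCC. The sequences are from RefSeq on GRCm38.p6, the assembly of mm10. They are chr3:114030390-114030539 on the plus strand for Col11a1, chr17:34038988-34039137 on the plus strand for Col11a2, chr4:63215262-63215411 on the plus strand for Col27a1, chr1:24177460-24177609 on the plus strand for Col9a1 and chr1:24587473-24587622 on the minus strand for Col19a1, each printed 5′ to 3′ along its gene. The start used for Col27a1 lies 1408 bases inside the gene as GENCODE annotates it, and that of Col11a2 lies 299 bases before the annotated one. The stretch of Col19a1 lies directly before the annotated start, with 35 bases between it and the RefSeq start.
Col11a1: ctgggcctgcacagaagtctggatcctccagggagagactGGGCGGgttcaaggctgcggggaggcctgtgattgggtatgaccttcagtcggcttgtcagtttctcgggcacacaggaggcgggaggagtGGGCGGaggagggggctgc
Col11a2: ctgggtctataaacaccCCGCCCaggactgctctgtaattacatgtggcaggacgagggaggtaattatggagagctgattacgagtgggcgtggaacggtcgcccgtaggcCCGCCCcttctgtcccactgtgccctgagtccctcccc
Col27a1: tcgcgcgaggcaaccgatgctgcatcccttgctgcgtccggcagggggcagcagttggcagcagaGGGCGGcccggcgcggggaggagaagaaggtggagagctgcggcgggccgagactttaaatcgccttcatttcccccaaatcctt
Col9a1: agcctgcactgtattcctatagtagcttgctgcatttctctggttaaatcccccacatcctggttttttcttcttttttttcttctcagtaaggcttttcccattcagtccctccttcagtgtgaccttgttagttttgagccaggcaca
Col19a1: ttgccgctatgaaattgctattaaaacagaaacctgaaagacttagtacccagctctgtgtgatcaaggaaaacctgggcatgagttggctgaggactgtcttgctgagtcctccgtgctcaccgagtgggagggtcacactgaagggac
The genes Col11a1, Col11a2 and Col9a1 were lower in Med23-/- iOLs and Col27a1 and Col19a1 were higher, as described below. The 5 stretches are given as description, and a link between these letters and the direction of change was not tested. Over the windows from 250 bases before to 50 bases after each RefSeq start, 35.7% of all 32851 windows held GGGCGG on either strand. For the collagens, laminins and integrins a window was at hand for 60 of the 83 genes, some of which had more than 1 start, and 36 of their 66 windows (54.5%) held it. The 35.7% counts all windows, whether or not their genes were expressed in these cells. Counted by gene, 17 of the 24 tested genes with a window held it. Of the 7 genes that passed both limits, 3 did. Among the 7 genes that passed both limits of the test, Col11a1, Col11a2 and Col27a1 held 2 GC boxes each in the whole window, of which 1 of the 2 in Col27a1 lies outside the stretch printed, and Col9a1, Col19a1, Itga8 and Itga9 held 0. The window of Itga9 lies at a start 105002 bases inside the gene, so its 0 does not describe the sequence at the annotated start. Such a match is only a run of letters.

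Without read counts the sequencing depth is unknown. From the spacing of low values, 1 read was worth between 0.740 and 1.02 times its worth in Med23+/+ replicate 1 across the 8 libraries. Med23 itself averaged 12.5 ± 0.225 FPKM in the Med23+/+ and 8.26 ± 0.247 FPKM in the Med23-/- group (SD, n = 4 each), and all Med23-/- libraries were below all Med23+/+ libraries. The value covers the whole gene, so transcripts with and without the floxed part are not told apart by it. The defining genes of the lineage were present, with 1847 to 2262 FPKM summed over Olig1, Olig2, Sox10, Pdgfra, Cspg4 and Gpr17 in Med23+/+ and 1716 to 2238 FPKM in Med23-/- iOLs. Within that sum the precursor markers Pdgfra (105 to 141 against 325 to 347 FPKM, log2 fold change 1.47, adjusted p = 2.33e-05) and Cspg4 (1.39, adjusted p = 0.000141) were higher in Med23-/- iOLs past both limits of the test described below. Gpr17, a receptor of immature oligodendrocytes, was lower past both limits (log2 fold change -1.05, adjusted p = 0.00991), Sox10 was lower by adjusted p alone (-0.49, adjusted p = 0.0203), and Olig1 and Olig2 did not pass. Summed over lists of 8 marker genes each, fibroblast markers had 2.29 to 3.86 FPKM in Med23+/+ and 5.43 to 6.77 FPKM in Med23-/- iOLs, without overlap, and 2 of the 8 had a mean of at least 1 FPKM. Of the 8, only Pdpn had no overlap by itself, at 0.420 to 0.946 against 1.82 to 2.43 FPKM, and the genotypes overlapped in each of the others. Pdpn was higher by adjusted p alone (log2 fold change 0.88, adjusted p = 0.00153). Fbln7, the other one tested, did not pass (0.16, adjusted p = 0.405). Endothelial markers summed to 0.509 to 1.19 FPKM in Med23+/+ and 1.17 to 3.03 FPKM in Med23-/- iOLs, with Tie1 at 0 in every library and Kdr alone above a mean of 1 FPKM. Kdr was higher by adjusted p alone (log2 fold change 0.77, adjusted p = 0.0398), with overlap between the genotypes. The means of Pdpn and Kdr reached 1 FPKM only in Med23-/- iOLs. Mural cell markers summed to 3.06 to 4.02 against 1.92 to 6.0 FPKM, microglia markers to 1.02 to 2.16 against 1.77 to 2.60 FPKM, and astrocyte markers to 74.1 to 137 against 54.8 to 90.7 FPKM, in the same order of genotypes. The mural markers tested, Acta2 and Tagln, did not pass (adjusted p = 0.441 and 0.0735). Of the 7 astrocyte markers tested, Fgfr3 (log2 fold change -2.05, adjusted p = 2.26e-05), Gfap (-1.70, adjusted p = 0.0222) and Aqp4 (-1.29, adjusted p = 0.0120) were lower past both limits, and Slc1a2 was higher by adjusted p alone (0.67, adjusted p = 0.0222). The part of these markers in the levels of the collagens, laminins and integrins was not tested.

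Of the 83 genes, 8 averaged at least 10 FPKM across the 8 libraries: Itgb1, Itgb8, Col11a1, Itgav, Lamc1, Col9a1, Col9a3 and Col11a2. A further 22 lay between 1 and 10 FPKM, 29 between 0.1 and 1 FPKM, and 24 below 0.1 FPKM. Just inside the limit for the test were Itga7 at a mean of 1.07 FPKM, Col20a1 at 1.10 and Col23a1 at 1.22, and just outside it were Lama1 at 0.959, Itga4 at 0.898 and Lama5 at 0.769. The tested genes were 18 collagens, 3 laminins and 9 integrins. In 6 of them (Col4a2, Col3a1, Col18a1, Itga8, Itga7 and Lamb1) the mean reached 1 FPKM only in Med23-/- iOLs, and in Col20a1 only in Med23+/+ iOLs.

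The genotypes were compared by limma on log2(FPKM + 1) over all 12328 genes that averaged at least 1 FPKM, with Benjamini-Hochberg adjustment over all of them. The log2 fold changes are Med23-/- over Med23+/+ on that scale, which understates the change of low genes, and all adjusted p given for genes come from this fit unless another is named. A gene passed both limits if its fold change exceeded 2 and its adjusted p was under 0.05. By both limits 4 of the 30 genes were higher in Med23-/- iOLs (Itga9, Itga8, Col19a1 and Col27a1) and 3 were lower (Col11a2, Col9a1 and Col11a1). Among all genes tested 2.98% were higher and 1.75% were lower by both limits (4.73% in all). By adjusted p alone 10 were higher and 5 were lower, 15 of 30, where 15.9% of all genes tested were higher and 14.1% were lower (30% in all). The libraries of the genotypes did not overlap in 10 genes that were higher and 3 that were lower, and in 31.6% of all genes tested (16.3% higher and 15.3% lower). For each gene without overlap, an exact permutation test (two-sided, 4 libraries against 4) gave p = 0.0286, the smallest it can give. The median log2 fold change of the 30 genes was 0.31, against -0.01 over all genes tested. This median includes the 6 genes named above whose mean reached 1 FPKM only in Med23-/- iOLs. Of those, Col4a2, Itga8 and Lamb1 were also among the 10 higher genes. The median and the counts of higher genes thus depend in part on the filter. Without Med23-/- replicate 4 the genes higher by both limits were 7 rather than 4, with Col18a1, Col4a1 and Itgb8 added, and without Med23+/+ replicate 3 the genes lower by adjusted p alone were 3 rather than 5.

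**Figure D1:**
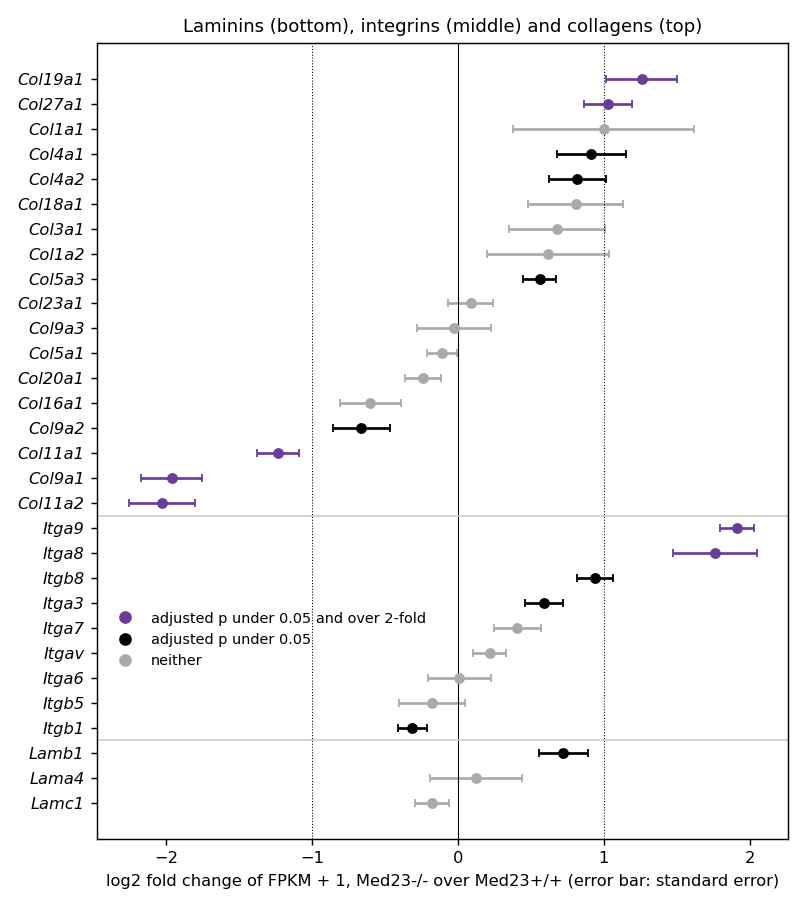
Log2 fold change of FPKM + 1, Med23-/- over Med23+/+ (horizontal axis), of the 30 collagen, integrin and laminin genes tested, with bars for the standard error of the limma fit and dotted lines at 2-fold. Purple marks the 7 genes past both limits, black the other 8 with an adjusted p under 0.05, and grey the 15 with neither; the lowest is Col11a2 at -2.03 and the highest Itga9 at 1.91.

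Among the fibrillar collagens, both genes named for type XI, Col11a1 and Col11a2, were lower in Med23-/- iOLs. Col11a1, on chromosome 3 (114030540 to 114220718, plus strand; coordinates throughout are GENCODE vM21 on mm10), was the most abundant collagen. It had 90.7, 80.7, 73.7 and 80.2 FPKM in Med23+/+ and 35.0, 41.7, 36.7 and 24.6 FPKM in Med23-/- iOLs, where the 4 values of a genotype here and below follow the replicate numbers. Every Med23-/- library lay under every Med23+/+ library, and the means of 81.3 ± 7.04 and 34.5 ± 7.17 FPKM (SD, n = 4 each) stood 2.36-fold apart. The log2 fold change was -1.23 (standard error 0.14, limma adjusted p = 0.000286). Type XI collagen is known as a minor fibrillar collagen that forms the core of thin fibrils in cartilage, and Col11a2 encodes its second chain. Col11a2 (chromosome 17, 34039437 to 34066685, plus strand) had 23.6, 14.0, 28.1 and 23.1 FPKM in Med23+/+ and 5.37, 5.60, 4.92 and 2.76 FPKM in Med23-/- iOLs. The groups did not overlap, and the mean of Med23+/+ was 4.76-fold that of Med23-/- iOLs (log2 fold change -2.03, standard error 0.23, adjusted p = 0.000227). Col11a2 therefore had the largest decrease on the log2 scale among the 30 genes tested. The ratio of Col11a1 to Col11a2, both in FPKM and thus per length, was 2.62 to 5.76 in Med23+/+ and 6.52 to 8.92 in Med23-/- libraries, so that the a1 chain was the larger partner in all libraries and more so in Med23-/- iOLs.

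The cartilage fibril collagen Col2a1, whose product shares a chain with type XI, did not reach the limit for the test. It had 1.17, 0.678, 1.19 and 0.586 FPKM in Med23+/+ and 0.314, 0.543, 0.273 and 0.137 FPKM in Med23-/- iOLs. Its Med23-/- libraries were all below its Med23+/+ libraries at these low levels. When all genes above 0 were fitted, its log2 fold change was -0.53 (limma adjusted p = 0.0255).

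Col27a1 (chromosome 4, 63214004 to 63334991, plus strand), a fibrillar collagen also known from cartilage, went the other way. It had 2.09, 1.76, 3.22 and 2.38 FPKM in Med23+/+ and 7.02, 6.77, 5.04 and 4.63 FPKM in Med23-/- iOLs. The groups did not overlap and the means differed 2.48-fold. Its log2 fold change of 1.03 (standard error 0.16, adjusted p = 0.00148) was close to the limit, and it passed both limits in 11 of the 16 alternative fits that held it while its adjusted p was under 0.05 in all 16. Col5a3, a chain of type V, was also higher in every Med23-/- library, at 2.31 to 2.98 FPKM against 1.31 to 1.63 FPKM (log2 fold change 0.56, adjusted p = 0.00557). Col5a1, which encodes another chain of the same type, averaged 2.67 ± 0.266 against 2.40 ± 0.221 FPKM (Med23+/+ against Med23-/-) and did not pass the test (log2 fold change -0.11, adjusted p = 0.471).

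The major fibrillar collagens of connective tissue, types I and III, spread widely within each genotype. Col1a1 had 6.66, 2.87, 0.298 and 0.327 FPKM in Med23+/+ and 10.4, 5.65, 3.41 and 1.44 FPKM in Med23-/- iOLs. The highest Med23+/+ library was thus above 3 of the 4 Med23-/- libraries, and the log2 fold change of 1.00 (standard error 0.62) did not pass the test (adjusted p = 0.258). The genotypes overlapped in Col1a2 and Col3a1 too, with log2 fold changes of 0.62 (adjusted p = 0.301) and 0.68 (adjusted p = 0.148). Fibroblasts are the usual source of both types, and the summed level of the fibroblast markers is given above. Among them Dcn, a fibroblast proteoglycan, had 0.674, 0.266, 0.145 and 0.234 FPKM in Med23+/+ and 1.29, 1.58, 1.10 and 0.479 FPKM in Med23-/- iOLs, with overlap. Igfbp6, also among them, averaged 0.209 FPKM in both genotypes. The part of these markers in the levels of the collagens was not tested, and in bulk samples fewer cells of a type and less RNA per cell cannot be told apart.

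**Figure D2:**
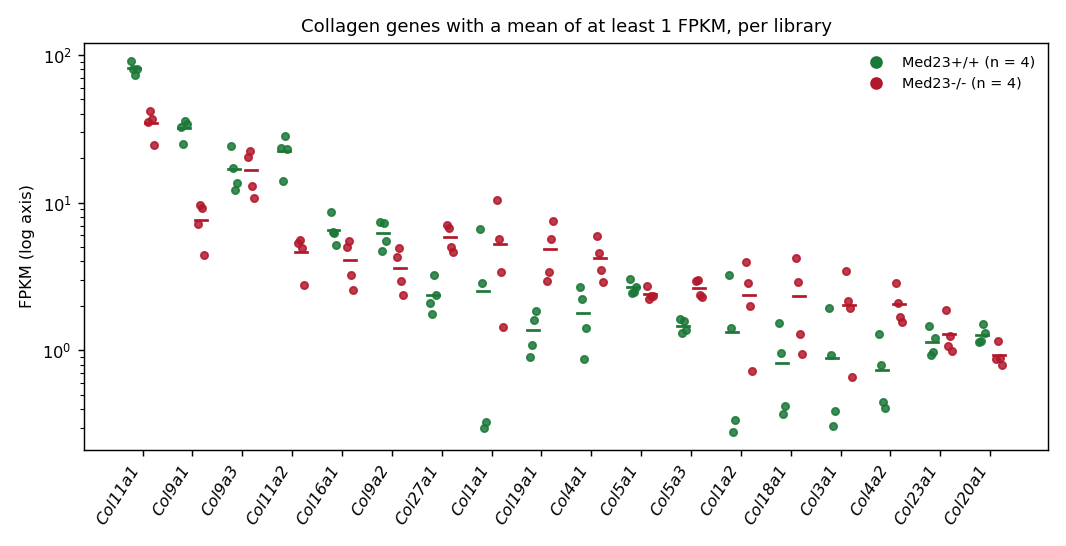
FPKM of the 18 tested collagen genes in each library on a log axis, with 1 point per library, green for Med23+/+ and red for Med23-/- (n = 4 each), and a line at the mean of each genotype. The Med23-/- points lie below the Med23+/+ points in Col11a1, Col9a1 and Col11a2 and above them in Col27a1, Col19a1, Col4a1, Col4a2 and Col5a3, whereas in Col1a1 the points of each genotype spread from 0.298 to 6.66 and from 1.44 to 10.4 FPKM.

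The fibril-associated collagens split by gene. Type IX collagen, which decorates fibrils of types II and XI, is built from the products of Col9a1, Col9a2 and Col9a3. Col9a1 (chromosome 1, 24177610 to 24252684, plus strand) had 32.3, 24.9, 35.9 and 34.2 FPKM in Med23+/+ and 7.22, 9.68, 9.26 and 4.41 FPKM in Med23-/- iOLs. The groups were far apart, with means of 31.8 ± 4.83 and 7.64 ± 2.41 FPKM (SD, n = 4 each), a 4.16-fold decrease (log2 fold change -1.96, standard error 0.21, adjusted p = 0.000171). Col9a2 had 7.41, 4.68, 7.33 and 5.51 FPKM in Med23+/+ and 4.27, 4.90, 2.96 and 2.38 FPKM in Med23-/- iOLs. These groups overlapped by 1 library each (Med23+/+ replicate 2 and Med23-/- replicate 2), and the log2 fold change was -0.66 with an adjusted p of 0.0295. This call was lost in 4 of the 8 fits that left out 1 library, where the adjusted p reached 0.0807 without Med23+/+ replicate 3. Col9a3, which encodes the third chain, had 24.3, 17.2, 12.2 and 13.6 FPKM in Med23+/+ and 20.4, 22.3, 13.0 and 10.8 FPKM in Med23-/- iOLs. The genotypes overlapped throughout, with means of 16.8 ± 5.40 and 16.6 ± 5.58 FPKM (log2 fold change -0.03, standard error 0.25, adjusted p = 0.953).

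The balance of the type IX chains accordingly differed between the genotypes. The ratio of Col9a1 to Col9a3 was 1.33, 1.45, 2.94 and 2.52 in the Med23+/+ libraries and 0.354, 0.434, 0.712 and 0.408 in the Med23-/- libraries. Col9a1 was thus the more abundant of the pair in every Med23+/+ library and the less abundant in every Med23-/- library. Col9a2 to Col9a3 ran from 0.273 to 0.600 in Med23+/+ and from 0.209 to 0.228 in Med23-/- libraries. These ratios were chosen after the values of the genes were seen and are given without a test.

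**Figure D3:**
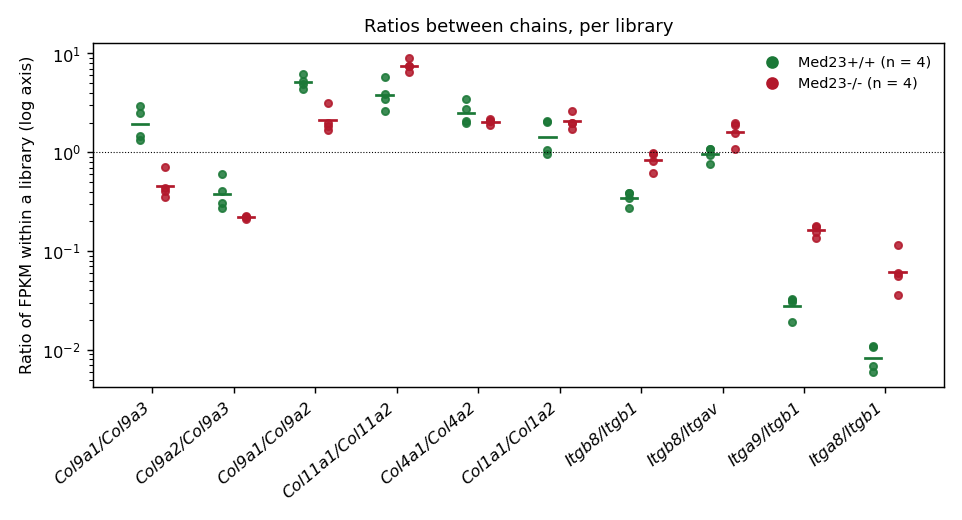
Ratio of FPKM between 2 genes within each library on a log axis, for 10 pairs of collagen or integrin chains, with 1 point per library, green for Med23+/+ and red for Med23-/- (n = 4 each), and a line at the mean on the log scale. The pairs were chosen after the values of the genes were seen. That the genotypes do not overlap in 7 of them is therefore a description of the chosen pairs only. Col9a1 to Col9a3 crosses the dotted line at a ratio of 1, from 1.33 to 2.94 in Med23+/+ to 0.354 to 0.712 in Med23-/- libraries.

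Col19a1, another fibril-associated collagen, lies next to Col9a1 on chromosome 1 (24261890 to 24587472, minus strand). The genes point toward each other with 9205 bases between their ends. Col19a1 had 0.902, 1.09, 1.62 and 1.84 FPKM in Med23+/+ and 2.96, 3.39, 5.64 and 7.46 FPKM in Med23-/- iOLs, so that it was higher in every Med23-/- library while its neighbour was lower. The means of 1.36 ± 0.439 and 4.86 ± 2.09 FPKM stood 3.57-fold apart (log2 fold change 1.26, standard error 0.24, adjusted p = 0.00409). Col16a1 had 5.13 to 8.64 FPKM in Med23+/+ and 2.56 to 5.51 FPKM in Med23-/- iOLs, with overlap (log2 fold change -0.60, adjusted p = 0.0527). Col20a1 did not pass the test either (log2 fold change -0.24, adjusted p = 0.173).

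Both genes of the common basement membrane collagen IV rose in Med23-/- iOLs. Col4a1 and Col4a2, whose products combine in 1 molecule, lie head to head on chromosome 8 (11198423 to 11312826 on the minus strand and 11312805 to 11449287 on the plus strand) and overlap by 22 bases at their starts. Col4a1 had 2.68, 2.21, 0.879 and 1.42 FPKM in Med23+/+ and 5.91, 4.55, 3.50 and 2.91 FPKM in Med23-/- iOLs. Col4a2 had 1.30, 0.799, 0.446 and 0.409 FPKM in Med23+/+ and 2.86, 2.09, 1.68 and 1.56 FPKM in Med23-/- iOLs. In neither gene did the genotypes overlap, and the log2 fold changes were 0.91 (standard error 0.24, adjusted p = 0.0167) for Col4a1 and 0.82 (standard error 0.20, adjusted p = 0.0116) for Col4a2. Neither passed the 2-fold limit on the log2(FPKM + 1) scale, although the mean FPKM were 2.35-fold and 2.77-fold higher. Their ratio, 1.97 to 3.47 in Med23+/+ and 1.87 to 2.18 in Med23-/- libraries, overlapped between the genotypes. Endothelial and mural cells are rich in collagen IV, and the marker sums of both are given above: their part in these values was not tested.

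The remaining collagens tested were Col18a1, a basement membrane collagen that carries heparan sulfate, and Col23a1, a transmembrane collagen. Col18a1 had 1.53, 0.958, 0.371 and 0.418 FPKM in Med23+/+ and 4.24, 2.88, 1.30 and 0.939 FPKM in Med23-/- iOLs. The means differed 2.85-fold, yet the groups overlapped and the test was not passed (log2 fold change 0.81, standard error 0.32, adjusted p = 0.0882). Without Med23-/- replicate 4 its log2 fold change was 1.03 and its adjusted p was 0.0340. Col23a1 had means of 1.15 ± 0.244 and 1.30 ± 0.404 FPKM and did not pass the test (log2 fold change 0.09, adjusted p = 0.709).

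Several of these collagens shared a pattern across the libraries that did not follow genotype. In 8 of the 30 genes (Col1a1, Col1a2, Col3a1, Col4a1, Col4a2, Col18a1, Col16a1 and Col9a3), all of them collagens, the replicates numbered 1 and 2 were above those numbered 3 and 4 in both genotypes. Among all genes tested 4.13% did so. The opposite order was found in 3 of the 30 genes (Col19a1, Itgav and Lama4) and in 7.22% of all genes tested. With this split of the replicates as a covariate in the limma fit, the adjusted p was 0.0292 for Col1a1, 0.0415 for Col3a1, 0.00626 for Col18a1 and 0.00931 for Col16a1, whereas Col1a2 still missed the threshold with 0.0709. The split was known from an earlier look at these data, and the labels give no batch that matches it. Genes picked because they separate along a split have less spread left once it is a covariate. No conclusion is therefore drawn from these lower values. Without the covariate the adjusted p of Col1a1, Col3a1, Col18a1 and Col16a1 were 0.258, 0.148, 0.0882 and 0.0527.

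**Figure D4:**
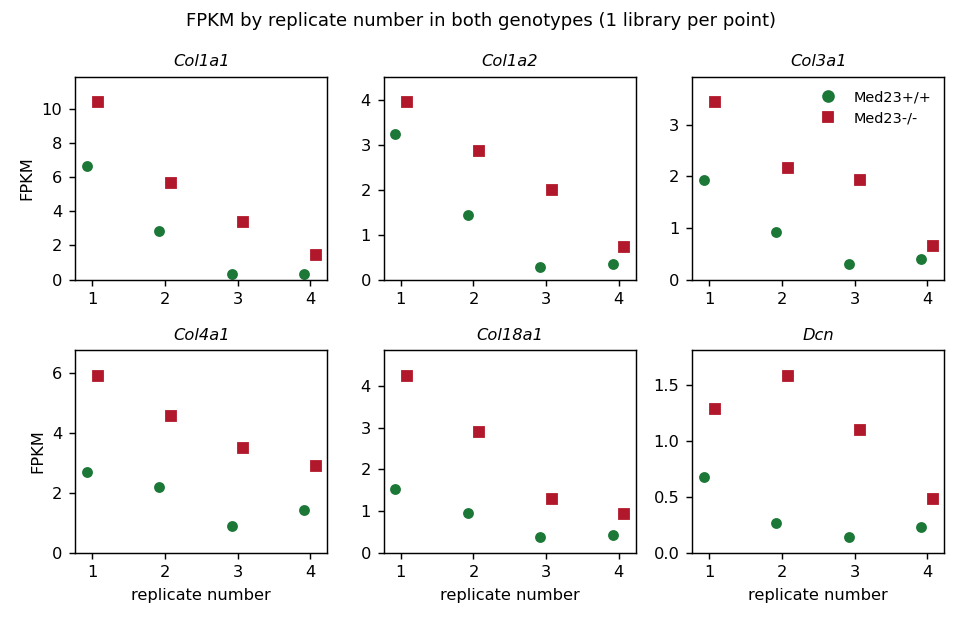
FPKM (vertical axis, linear and from 0) of 5 collagens and of the fibroblast gene Dcn in each library against the number of the replicate, with green circles for Med23+/+ and red squares for Med23-/- (1 library per point). In each of the 5 collagens the libraries numbered 1 and 2 lie above those numbered 3 and 4 in the same genotype, as Col1a1 does with 6.66 and 2.87 against 0.298 and 0.327 FPKM in Med23+/+.

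Summed over the class, collagen transcripts were lower in Med23-/- iOLs. The sum over the 44 collagens was 220.3, 170.4, 180.7 and 179 FPKM in Med23+/+ and 133, 134, 107 and 77.8 FPKM in Med23-/- iOLs, without overlap (log2 ratio of the means -0.73). The makeup of that sum also differed, with Col11a1 giving 43.5% ± 3.14 of it in Med23+/+ and 30.9% ± 3.37 in Med23-/- iOLs, and Col9a1 giving 17.1% ± 2.81 and 6.75% ± 1.52 (SD, n = 4 each). Col11a2 went from 11.9% ± 3.13 to 4.09% ± 0.440, and Col9a3, whose own level did not pass the test, from 8.86% ± 2.01 to 14.5% ± 1.91. These sums are dominated by a few genes and are given without a test. The median log2 fold change of the 18 collagens tested was 0.32, opposite in sign to the sum. By adjusted p alone 5 of the 18 were higher and 4 were lower, beside 15.9% and 14.1% of all genes tested. The filter described above also affects this median and the count of higher genes.

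Among the laminins, Lamc1 encodes the gamma chain found in most laminins and was the most abundant. It had 23.0, 27.4, 32.4 and 34.3 FPKM in Med23+/+ and 26.8, 25.8, 24.2 and 25.0 FPKM in Med23-/- iOLs. The groups overlapped and the gene did not pass the test (log2 fold change -0.18, standard error 0.12, adjusted p = 0.285). The main alpha chain was Lama4, known from vessels and peripheral nerve, with 2.60, 3.42, 6.80 and 6.24 FPKM in Med23+/+ and 4.0, 2.98, 5.57 and 8.71 FPKM in Med23-/- iOLs. Its values overlapped widely (log2 fold change 0.12, adjusted p = 0.800). The beta chain gene Lamb1 (chromosome 12, 31265234 to 31329644, plus strand) had 1.24, 0.618, 0.532 and 0.566 FPKM in Med23+/+ and 2.32, 1.54, 2.11 and 1.46 FPKM in Med23-/- iOLs. It was higher in every Med23-/- library, 2.51-fold by the means, with a log2 fold change of 0.72 (standard error 0.17, adjusted p = 0.0101), under the 2-fold limit. The sum over the 11 laminins, led by Lamc1, was 29.8 to 42.9 FPKM in Med23+/+ and 33.3 to 38.5 FPKM in Med23-/- iOLs.

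Of the other laminin chains none reached a mean of 1 FPKM. Lama1, known from embryonic basement membranes, came closest, with 0.827, 0.789, 0.496 and 0.563 FPKM in Med23+/+ and 1.59, 1.12, 0.870 and 1.41 FPKM in Med23-/- iOLs. Lama2, the alpha chain of muscle and peripheral nerve, had 0.131 to 0.219 FPKM in Med23+/+ and 0.116 to 0.346 FPKM in Med23-/- iOLs. Lamb2 had 0.309 to 0.847 and 0.435 to 1.04 FPKM.

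The integrin beta chains set most of the integrin level. Itgb1, the partner of most integrin alpha chains and the most abundant of the 83 genes, had 102, 116, 128 and 115 FPKM in Med23+/+ and 80.8, 89.4, 102 and 98.5 FPKM in Med23-/- iOLs. The groups overlapped by 1 library each (Med23+/+ replicate 1 and Med23-/- replicate 3), and the log2 fold change was -0.31 (standard error 0.10, adjusted p = 0.0394). That call was kept in 3 of the 8 fits without 1 library and was lost under quantile normalization (adjusted p = 0.175). Itgb8 (chromosome 12, 119158022 to 119238802, minus strand), which pairs with the alpha-v chain and is known for releasing TGF-beta from its latent form, had 39.5, 44.8, 35.2 and 39.9 FPKM in Med23+/+ and 77.7, 88.9, 83.4 and 61.0 FPKM in Med23-/- iOLs. Every Med23-/- library was above every Med23+/+ library, with means 1.95-fold apart (log2 fold change 0.94, standard error 0.12, adjusted p = 0.000506). The ratio of Itgb8 to Itgb1 rose from 0.276 to 0.387 in the Med23+/+ libraries to 0.619 to 0.995 in the Med23-/- libraries. Itgb5 had 1.65 ± 0.559 and 1.38 ± 0.720 FPKM (log2 fold change -0.18, adjusted p = 0.597).

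Itgav, the alpha-v chain and partner of Itgb8, had 36.6, 41.5, 46.1 and 42.6 FPKM in Med23+/+ and 41.1, 45.1, 52.9 and 56.6 FPKM in Med23-/- iOLs. The groups overlapped and the gene did not pass the test (log2 fold change 0.22, standard error 0.11, adjusted p = 0.177). The ratio of Itgb8 to Itgav was 0.764 to 1.08 in Med23+/+ and 1.08 to 1.97 in Med23-/- libraries, where the groups met at Med23-/- replicate 4.

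The alpha chains Itga9 and Itga8 had the largest increases on the log2 scale among the 30 genes. Itga9 (chromosome 9, 118606690 to 118901003, plus strand) encodes the alpha9 chain, which pairs with beta1 and binds tenascin-C and osteopontin. It had 3.37, 3.54, 2.44 and 3.71 FPKM in Med23+/+ and 14.3, 16.1, 16.1 and 13.4 FPKM in Med23-/- iOLs. The groups were narrow and far apart, with means of 3.26 ± 0.568 and 15.0 ± 1.34 FPKM (SD, n = 4 each), a 4.59-fold increase (log2 fold change 1.91, standard error 0.12, adjusted p = 1.86e-05). Itga8 (chromosome 2, 12106632 to 12301922, minus strand) encodes the alpha8 chain, which pairs with beta1 and binds matrix proteins that carry the sequence Arg-Gly-Asp, nephronectin among them. It had 0.706, 1.27, 0.770 and 1.23 FPKM in Med23+/+ and 4.53, 3.19, 6.12 and 11.3 FPKM in Med23-/- iOLs. Its Med23-/- libraries were all higher but spread widely, with means 6.33-fold apart (log2 fold change 1.76, standard error 0.29, adjusted p = 0.00166). In relation to their common beta chain, Itga9 to Itgb1 was 0.0191 to 0.0330 in Med23+/+ and 0.136 to 0.180 in Med23-/- libraries, and Itga8 to Itgb1 was 0.00603 to 0.0110 and 0.0357 to 0.115, in the same order.

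**Figure D5:**
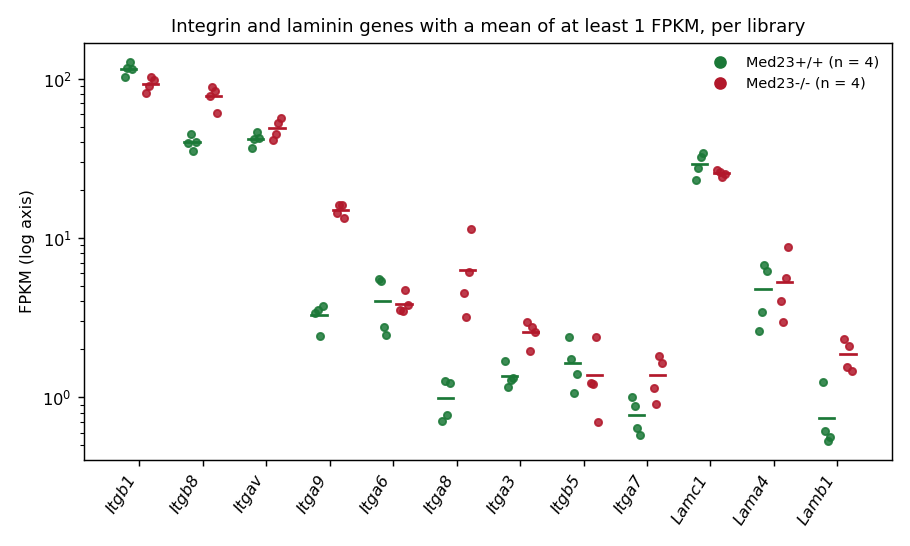
FPKM of the 9 integrin and 3 laminin genes tested in each library on a log axis, with 1 point per library, green for Med23+/+ and red for Med23-/- (n = 4 each), and a line at the mean of each genotype. The genotypes stand apart in Itgb8, Itga9, Itga8, Itga3 and Lamb1, and meet or overlap in the other 7 genes, among them Itgb1 at 102 FPKM in each.

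The 3 laminin-binding alpha chains were all tested. Itga6, whose product with beta1 is the laminin receptor best known in oligodendrocytes, had 5.53, 5.35, 2.76 and 2.45 FPKM in Med23+/+ and 3.50, 3.48, 4.72 and 3.78 FPKM in Med23-/- iOLs. The Med23-/- libraries lay inside the range of the Med23+/+ libraries (log2 fold change 0.01, standard error 0.22, adjusted p = 0.981). Itga3 had 1.68, 1.17, 1.29 and 1.32 FPKM in Med23+/+ and 2.97, 1.94, 2.78 and 2.56 FPKM in Med23-/- iOLs, without overlap (log2 fold change 0.59, standard error 0.13, adjusted p = 0.00810). Itga7 had means of 0.777 ± 0.197 and 1.37 ± 0.417 FPKM, which did not pass the test (log2 fold change 0.41, adjusted p = 0.0841). None of the 4 collagen-binding alpha chains reached the limit, and the highest of them, Itga1, had 0.235 to 0.393 FPKM in Med23+/+ and 0.411 to 0.919 FPKM in Med23-/- iOLs.

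Summed over the 28 integrins, the level was 197, 219, 222 and 212 FPKM in Med23+/+ and 232, 254, 277 and 255 FPKM in Med23-/- iOLs, without overlap (log2 ratio of the means 0.26). Itgb1 gave 54.0% ± 2.55 of the sum in Med23+/+ and 36.4% ± 1.77 in Med23-/- iOLs, and Itgb8 gave 18.8% ± 2.05 and 30.6% ± 4.91 (SD, n = 4 each). The collagen and integrin sums thus differed in opposite directions between the genotypes, whereas the laminin sums overlapped.

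The 53 genes that were not tested had means up to 0.959 FPKM, and 47 of them stayed under 1 FPKM in each library. All 6 beaded filament collagens of type VI were among them, with Col6a1 highest at 0.0693 to 0.219 FPKM in Med23+/+ and 0.212 to 0.524 FPKM in Med23-/- iOLs. So were the 5 alpha chains of leukocyte integrins, of which Itgae was highest with a mean of 0.184 FPKM and Itgad was listed at 0 in every library, as was Itgb2l. The network collagen Col10a1 had means of 0.595 ± 0.106 and 0.410 ± 0.177 FPKM. When all genes above 0 in at least 1 library were fitted (18429 genes), 51 of the 53 could be fitted and 10 had an adjusted p under 0.05, beside 19.8% of all genes in that fit and 7.1% of those with a mean under 1 FPKM. By direction, 8 were higher and 2 lower in Med23-/- iOLs, beside 11.1% higher and 8.72% lower of all genes in that fit, and 5.49% higher and 1.61% lower of those under 1 FPKM. Of the 10, Itgb7, a beta chain of leukocytes, was lower in Med23-/- iOLs (1.12, 0.633, 0.878 and 1.03 against 0.316, 0.272, 0.265 and 0.216 FPKM, log2 fold change -0.59, adjusted p = 0.00195), as was Col2a1. The other 8 were higher, and the largest log2 fold change among them was that of Col26a1 at 0.67 (0.149 to 0.408 against 0.598 to 1.39 FPKM, adjusted p = 0.0141).

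Other genes of the matrix pathway were taken as lists. Of 18 matrix glycoproteins that bind collagens, laminins or integrins, 6 were tested. By adjusted p alone 1 was higher (Fbln1) and 2 were lower (Hspg2 and Fbln5), beside 15.9% higher and 14.1% lower of all genes tested. Hspg2, which encodes the basement membrane proteoglycan perlecan, had 13.3, 11.3, 19.2 and 17.8 FPKM in Med23+/+ and 4.99, 5.15, 4.77 and 4.53 FPKM in Med23-/- iOLs. It passed both limits (log2 fold change -1.46, standard error 0.15, adjusted p = 0.000146), in the direction opposite to Col4a1 and Col4a2 of the same membranes. Spp1, which encodes osteopontin, had 0.666, 0.711, 1.24 and 0.395 FPKM in Med23+/+ and 4.93, 3.35, 3.21 and 0.422 FPKM in Med23-/- iOLs, and did not pass the test with 1 Med23-/- library at the Med23+/+ level (adjusted p = 0.0692).

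Collagen chains are modified and folded by enzymes and chaperones in the endoplasmic reticulum and are cross-linked outside the cell. The gene table held 24 of them and 16 were tested, of which 5 were lower (Plod2, P4ha1, P4hb, Plod3 and Loxl3) and 1 was higher (Adamts3) by adjusted p alone, beside 14.1% lower and 15.9% higher of all genes tested, with a median log2 fold change of -0.08. Plod2, a lysyl hydroxylase that prepares collagen for cross-linking, had 30.6, 30.6, 37.9 and 32.1 FPKM in Med23+/+ and 10.3, 11.1, 12.3 and 11.5 FPKM in Med23-/- iOLs. It was the 1 gene of the list past both limits (log2 fold change -1.46, standard error 0.09, adjusted p = 1.91e-05). P4ha1 and P4hb, the chains of prolyl 4-hydroxylase, which stabilizes the triple helix, had log2 fold changes of -0.78 (adjusted p = 0.00100) and -0.45 (adjusted p = 0.000963). Serpinh1, the collagen chaperone, did not pass the test (log2 fold change -0.03, adjusted p = 0.950). Lox, a cross-linking enzyme with a mean under 1 FPKM that was therefore not tested, had 0.559, 0.135, 0.165 and 0.176 FPKM in Med23+/+ and 0.907, 0.814, 2.53 and 1.26 FPKM in Med23-/- iOLs, without overlap.

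Inside the cell, 12 of 15 integrin adaptors were tested. By adjusted p alone 5 were lower and 1 was higher, beside 14.1% lower and 15.9% higher of all genes tested. Their median log2 fold change was -0.17, against -0.01 over all genes tested. None of these adaptors passed both limits, beside 4.73% of all genes tested. The lower ones were Tns1 (log2 fold change -1.0, adjusted p = 0.000707), Bcar1 (-0.93, adjusted p = 0.00115), Pxn (-0.82, adjusted p = 0.000474), Fermt2 (-0.52, adjusted p = 0.00268) and Ptk2 (-0.31, adjusted p = 0.0166), which encode tensin 1, p130Cas, paxillin, kindlin-2 and focal adhesion kinase. Pxn had 29.1 to 34.8 FPKM in Med23+/+ and 16.0 to 21.8 FPKM in Med23-/- iOLs. The higher one was Tln2, which encodes talin 2 (log2 fold change 0.33, adjusted p = 0.0348). Tln1 and Vcl did not pass the test (adjusted p = 0.176 and 0.245).

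Of 9 other matrix receptors 7 were tested and 1 passed by adjusted p alone, beside 30% of all genes tested. Sdc3, a heparan sulfate proteoglycan of the cell surface, had 72.3, 64.3, 60.0 and 71.2 FPKM in Med23+/+ and 113, 92.1, 80.2 and 110.4 FPKM in Med23-/- iOLs (log2 fold change 0.55, standard error 0.12, adjusted p = 0.00747). The collagen receptors Ddr1 and Ddr2 and the laminin receptor Dag1 did not pass (adjusted p = 0.542, 0.139 and 0.847).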

How the data were processed

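RNA-seq of 4 Med23+/+ and 4 Med23-/- libraries was analysed. According to the study's methods and the submitters' processing notes, the authors used cutadapt for trimming and TopHat2 for alignment to mm10, and deposited FPKM values (fragments scaled by transcript length and library size) made by Cuffdiff for each library. Versions, the gene annotation, the normalization between libraries and the strand setting are not given in the sources used here. Of the tested genes, Col9a3, Col18a1, Itga7, Col4a1 and Col4a2 overlap a protein-coding gene on the opposite strand, so their values may share reads with it. The deposited table also holds the authors' FPKM per genotype, log2 fold change, test statistic, p-value, q-value and significance, which were not used. No library column was left out (0 columns).

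Groups came from the labels. FPKM were taken as log2(FPKM + 1) without further scaling, and genes averaging at least 1 FPKM were tested (12328 of 24346). The comparison came from limma 3.58.1 in R 4.3.3 (lmFit, eBayes with a trend) with Benjamini-Hochberg adjustment over all of them. The fit was also run on simulated data in which only more abundant genes were changed, by more than 2-fold. That run therefore says nothing of low genes or smaller changes. Python 3.11.15, numpy 2.4.6, pandas 2.3.3, scipy 1.17.1 and matplotlib 3.10.9 made tables, exact permutation tests and figures. Coordinates are from GENCODE vM21 and promoter windows from RefSeq on GRCm38.p6. The members and lists were chosen with earlier results of these data known. Named were genes past both limits, those with a mean of at least 10 FPKM, the highest of each role, and others as exceptions or ends of a range. Of the other lists, genes past both limits or the highest were to be named, and the further genes named from them, and the ratios between chains, were chosen after their values were seen. Schwann cell markers, 0 of 5 with a mean of at least 1 FPKM, summed to 1.56 to 1.88 FPKM in Med23+/+ and 1.81 to 2.35 FPKM in Med23-/- libraries. As alternatives, a pseudocount of 0.1, a filter at 5 FPKM, all genes above 0, median-ratio scaling or quantile normalization, array weights, a fit without the variance trend, the replicate number as a block, the split of the replicates, fold change alone and leaving out each library were tried.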

Additional observations from a re-analysis of the deposited data

Results flagged for a closer look

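Of the 60 sets of 4 libraries examined (30 tested genes in each genotype), 1 held a library that stood far from the others, where chance alone gives about 5% of sets. In Med23+/+ iOLs Lamb1 had 1.24 FPKM in replicate 1, and the next highest library had 0.618 FPKM. The gap took 0.878 of the range of the group, above the critical value for 4 libraries (Dixon's test). The Med23-/- libraries of Lamb1 were all above 1.24 FPKM, and its adjusted p stayed under 0.05 in each of the 8 fits that left out 1 library.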

How the results depend on the processing

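The 3 genes lower in Med23-/- iOLs by both limits were 3 in each alternative. The 4 genes higher by both limits became 7 with a pseudocount of 0.1, 1 with a mean of at least 5 FPKM, where Itga8, Col19a1 and Col27a1 were not tested, and 3 to 7 when each library was left out. By adjusted p alone, the 10 higher genes became 18 with all genes above 0 and 2 with a mean of at least 5 FPKM, and were 10 to 12 without single libraries, and the 5 lower genes were 3 to 5 without single libraries. The summed collagens, laminins and integrins moved by less than the spread between libraries, with log2 ratios of -0.82 to -0.59, -0.13 to 0.04 and 0.21 to 0.30 without single libraries. Genes near no change turned in sign. Col9a3, at -0.03, was at 0.19 with array weights and ran from -0.18 to 0.16 without single libraries (0.16 without Med23+/+ replicate 1, and 0.066 and 0.15 without Med23-/- replicates 3 and 4). Col23a1, at 0.09, was at -0.051 under quantile normalization and ran from -0.026 (without Med23-/- replicate 1) to 0.16. Itga6, at 0.01, was at -0.14 under quantile normalization and ran from -0.15 to 0.15, below 0 without Med23+/+ replicates 3 and 4 (-0.11 and -0.15) and Med23-/- replicate 3 (-0.071). Lama4, at 0.12, was at -0.15 with array weights and ran from -0.11 (without Med23-/- replicate 4) to 0.32, with -0.077 without Med23+/+ replicate 1. None of these passed the test in any of these fits, and the causes were not tested.

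Over the genes tested, deviations from the genotype means correlated between same-numbered libraries by 0.130, -0.096, -0.026 and 0.159 for numbers 1 to 4, so the numbers were not treated as a pairing. With the replicate block the genes higher by both limits were 4 and the lower 3, and by adjusted p alone 14 and 6, with Col1a1, Col1a2, Col3a1 and Col18a1 (adjusted p = 0.0110, 0.0435, 0.0245 and 0.00773) and Col16a1 (0.0135) added. The block takes up the split of the replicates along which these added genes separate, so no conclusion is drawn from them. FPKM without read counts give no counting error.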
